A study of Mus musculus with 10 samples.

Results

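Iron handling was examined through 8 genes of the dentate gyrus, out of 24982 gene rows counted: Tfrc, Trf, Slc11a2, Fth1, Ftl1, Slc40a1, Aco1 and Ireb2, written in the count table as TFRC, TRF, SLC11A2, FTH1, FTL1, SLC40A1, ACO1 and IREB2. They were taken by name, because the transferrin receptor gene Tfrc stood among the smaller p-values of the comparison between genotypes and the other 7 share its pathway. RNA of the micro-dissected dentate gyrus, the granule neuron field of the hippocampus, was sequenced in 5 male mice with a global knockout of Fndc5 (KO) and in 5 male wild-type mice (WT), all C57BL/6 and 10 weeks old. Fndc5 encodes the membrane protein from which the myokine irisin is cleaved, and each mouse gave 1 library. All 8 genes passed the filter on low counts, as did 14867 genes in all.

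Cells take up iron mainly as transferrin-bound iron, which the transferrin receptor carries into endosomes, and the divalent metal transporter then moves it into the cytosol. Iron that is not used is stored in ferritin, a shell of heavy and light chains, or leaves the cell through ferroportin. The iron regulatory proteins, encoded by Aco1 and Ireb2, bind a hairpin called the iron-responsive element when iron is scarce. Bound in the 3′ UTR of Tfrc the hairpins keep the mRNA from decay, and bound in the 5′ UTR of ferritin and ferroportin mRNAs they hold back translation. In the brain, oligodendrocytes are known for making transferrin, and brain endothelium and neurons for carrying the receptor.

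The hairpins are shown because they are the feature through which these transcripts are known to be tied to each other. The GENCODE M21 transcripts (mm10, GRCm38) were searched on the sense strand for an unpaired C, 5 bases, the loop CAGTGN and 5 bases that pair with the first 5 by A-T, G-C or G-T pairs. Of 21894 protein-coding genes, each read through 1 representative transcript, 257 (1.17%) held a match. Tfrc held 4 matches, and it was the only 1 of these genes with at least 3. In the lines below, DNA letters of the sense strand run 5′ to 3′, with 5 flanking bases on either side and the hexanucleotide loop in capitals.
Tfrc, 3′ UTR, chr16:32631220-32631246, plus strand: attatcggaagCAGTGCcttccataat
Tfrc, 3′ UTR, chr16:32631599-32631625, plus strand: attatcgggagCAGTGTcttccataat
Tfrc, 3′ UTR, chr16:32631664-32631690, plus strand: tatatcggagaCAGTGAtctccatatg
Tfrc, 3′ UTR, chr16:32631711-32631737, plus strand: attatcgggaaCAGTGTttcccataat
Fth1, 5′ UTR, chr19:9982733-9982759, plus strand: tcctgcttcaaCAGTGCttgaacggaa
Ftl1, 5′ UTR, chr7:45459780-45459806, minus strand: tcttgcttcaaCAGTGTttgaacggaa
Slc40a1, 5′ UTR, chr1:45925466-45925492, minus strand: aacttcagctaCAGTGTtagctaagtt
Slc11a2, 3′ UTR, chr15:100395153-100395180, minus strand: gccatcagagcCAGTGTgtttctatggt

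The Slc11a2 hairpin has 1 unpaired base in its 3′ arm and lies in the transcript Slc11a2-205, which is not the representative transcript of the gene. Allowing that unpaired base in the same search, 517 genes (2.36%) held a match. No match of either form was found in Trf, Aco1 or Ireb2 transcripts. Counts per gene do not separate Slc11a2 transcripts with the hairpin from those without it. A match is a description of the letters and does not show that a protein was bound.

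Per kilobase of representative transcript, the heavy ferritin chain stood far above the other 7 genes. Fth1 averaged 1240 ± 47.4 CPM per kb (CPM is the count scaled to a common library total) in KO mice and 1210 ± 17.9 CPM per kb in WT mice (SD, n = 5 each, as for the other means below). Ftl1, the light chain, averaged 90.7 ± 3.84 CPM per kb in KO mice and 88.6 ± 2.33 CPM per kb in WT mice. The Fth1 level per length was 13.3 to 14.1 times that of Ftl1 in KO mice and 13.3 to 13.8 times in WT mice. Ferritin genes have processed pseudogenes whose reads the authors' counting could have split or dropped, so the ferritin levels and this ratio are uncertain. Trf followed at 30.6 ± 3.23 and 30 ± 2.31 CPM per kb in KO and WT mice, Slc11a2 at 17.9 ± 0.590 and 17.9 ± 0.470, and Tfrc at 14.4 ± 0.812 and 17.1 ± 1.59. Ireb2 averaged 9.78 ± 0.528 CPM per kb in KO mice and 11.2 ± 1.29 in WT mice, and Aco1 10.1 ± 0.358 and 9.62 ± 0.505. Slc40a1 was lowest, at 2.34 ± 0.402 CPM per kb in KO mice and 2.43 ± 0.384 in WT mice. In this order, neighbouring genes did not overlap over the 10 mice, except Slc11a2 with Tfrc, where Slc11a2 was higher in 8 of 10 mice, and Ireb2 with Aco1, where Ireb2 was higher in 6 of 10.

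Tfrc, the receptor on chromosome 16 from 32608920 to 32632794, had 69.7, 75.0, 66.2, 67.6 and 74.4 CPM in KO mice 1 to 5, against 79.4, 90.7, 76.3, 93.7 and 79.2 CPM in WT mice 1 to 5. Every KO mouse lay below every WT mouse, and WT mice 2 and 4 were higher than the other WT mice. The means were 70.6 ± 3.97 CPM in KO mice and 83.8 ± 7.76 CPM in WT mice, a log2 fold change of -0.25 (SE 0.058, 95% interval -0.37 to -0.13), or 84.2% of the WT level. Over all genes tested, 0.437% had every KO mouse below every WT mouse. Tfrc was chosen on this contrast, so its difference is a description and carries no test. In tissue RNA, fewer cells that express a gene and less RNA per cell cannot be told apart.

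Trf encodes transferrin, the carrier that the receptor binds, and lies on chromosome 9 from 103204001 to 103230444. It had 79.6, 70.4, 69.8, 87.6 and 85.5 CPM in KO mice, against 69.2, 77.5, 73.4, 80.7 and 84.4 CPM in WT mice. The genotypes overlapped through most of their range, with KO mice 2 and 3 and WT mouse 1 at the low end. Its log2 fold change, KO minus WT, was 0.03 with an SE of 0.067 and a 95% interval of -0.11 to 0.17. Slc11a2, which encodes the divalent metal transporter of the endosome (chromosome 15, 100387898 to 100425072), spread least of the uptake genes. It ran from 51.1 to 55.7 CPM in KO mice and from 52.7 to 56.2 CPM in WT mice, with a log2 fold change of 0.000067 (SE 0.039, 95% interval -0.08 to 0.08).

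**Figure D1:**
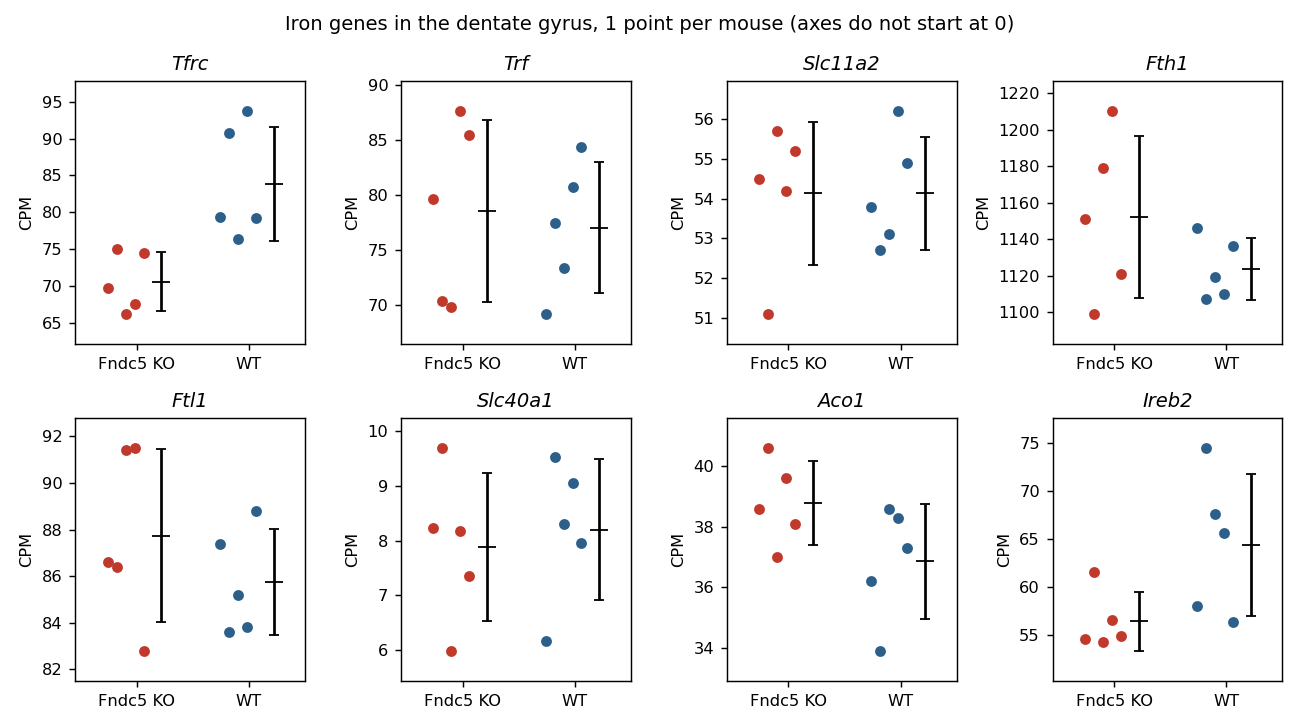
CPM of the 8 iron genes in each mouse, with KO mice in red and WT mice in blue, and the mean with its SD (n = 5 each) as a bar beside the points. Tfrc is the panel in which the genotypes are apart, with KO mice at 66.2 to 75.0 CPM and WT mice at 76.3 to 93.7 CPM, and the other 7 panels overlap.

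The storage genes overlapped between genotypes. Fth1, the heavy chain with the ferroxidase site (chromosome 19, 9980598 to 9985098), had 1151, 1099, 1179, 1210 and 1121 CPM in KO mice, against 1146, 1107, 1119, 1110 and 1136 CPM in WT mice. KO mice 1, 3 and 4 were above every WT mouse and KO mouse 2 was below them all. On the log2 scale Fth1 differed by 0.04 with an SE of 0.032 (95% interval -0.03 to 0.10). Ftl1, the light chain that aids mineral formation (chromosome 7, 45457944 to 45459884), had 86.6, 86.4, 91.4, 91.5 and 82.8 CPM in KO mice, against 87.4, 83.6, 85.2, 83.8 and 88.8 CPM in WT mice. KO mice 3 and 4 were above every WT mouse and KO mouse 5 was below them all. Ftl1 differed by 0.03 with an SE of 0.038 (95% interval -0.05 to 0.11).

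Slc40a1 encodes ferroportin, the exporter (chromosome 1, 45908068 to 45926523), and was counted at 191 to 365 reads per library, the lowest of the 8 genes. It had 8.23, 9.69, 5.99, 8.18 and 7.35 CPM in KO mice, against 6.17, 9.53, 8.30, 9.06 and 7.95 CPM in WT mice. The genotypes shared nearly the same range, and the spread within a genotype, 17.2% of the mean in KO mice and 15.8% in WT mice, was the widest of the 8. Its log2 fold change had the widest interval, at -0.06 with an SE of 0.13 and a 95% interval of -0.32 to 0.21.

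Of the regulators, Ireb2 was nearest to Tfrc in its genotype difference and Aco1 was not. Ireb2 encodes iron regulatory protein 2, which is destroyed when iron is plentiful (chromosome 9, 54863789 to 54912530). It had 54.6, 61.6, 54.3, 56.6 and 54.9 CPM in KO mice, against 58.0, 74.5, 67.6, 65.6 and 56.3 CPM in WT mice. KO mice 1, 3 and 5 were below every WT mouse, while KO mice 2 and 4 were within the WT range. Its KO mean was 56.4 ± 3.05 CPM and its WT mean 64.4 ± 7.44 CPM, a log2 fold change of -0.19 with an SE of 0.066 (95% interval -0.33 to -0.05), or 87.6% of the WT level. The ratio of Tfrc to Ireb2 CPM, not scaled for length, was 1.19 to 1.35 in KO mice and 1.13 to 1.43 in WT mice, so it overlapped between genotypes. Aco1 encodes iron regulatory protein 1, which acts as cytosolic aconitase when it holds an iron-sulphur cluster (chromosome 4, 40143081 to 40198338). Aco1 had 38.6, 40.6, 37.0, 39.6 and 38.1 CPM in KO mice, against 36.2, 33.9, 38.6, 38.3 and 37.3 CPM in WT mice, with a log2 fold change of 0.07 (SE 0.047, 95% interval -0.03 to 0.17).

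With edgeR's quasi-likelihood test, with p-values adjusted (Benjamini-Hochberg) across the 14867 genes tested, 0 of the 8 genes passed the threshold of 0.05, against 0.00673% of genes in all, which is Fndc5 alone. At an unadjusted p under 0.05 there were 2 of 8, Tfrc and Ireb2, against 6.29% of all genes, and DESeq2 also passed 0 of 8. These counts come from the contrast on which the genes were chosen, so nothing is read from them. The members' median log2 fold change was 0.01, with 5 higher and 3 lower in KO mice, and the median of all genes tested was 0.0016. After the GC and length correction described next the split was 3 higher and 5 lower, with Slc11a2 and Ftl1 both at -0.01.

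Tfrc and Ireb2 also have the longest transcripts of the 8, at 4890 and 5770 bases, and the lowest GC content, at 39.8% and 39.0%. Slc40a1 follows at 43.5%, and Aco1, Trf, Slc11a2, Fth1 and Ftl1 lie between 52.1% and 58.1%. After each library was corrected for trends with GC content and transcript length, the log2 fold change was -0.17 for Tfrc and -0.10 for Ireb2. Corrected Tfrc ran from 6.11 to 6.27 log2 CPM in KO mice and from 6.18 to 6.53 log2 CPM in WT mice, so that the genotypes overlapped and 3 of 5 KO mice lay below every WT mouse. The corrected log2 fold changes of the other 6 genes were between -0.02 and 0.07.

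**Figure D2:**
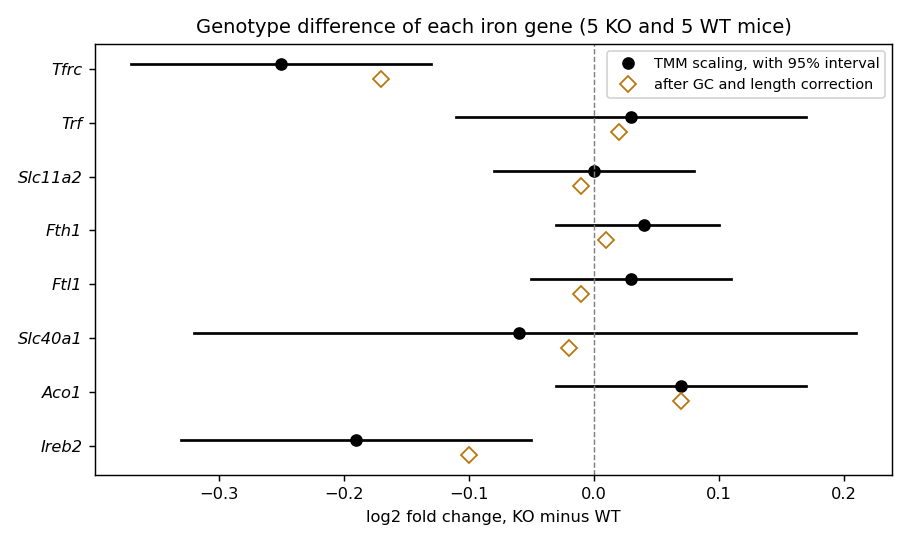
Log2 fold change of each iron gene, KO minus WT, over 5 mice of each genotype, with black points and 95% intervals for TMM scaling and open diamonds for the value after GC and length correction. Tfrc (-0.25, corrected -0.17) and Ireb2 (-0.19, corrected -0.10) lie left of 0, and the intervals of the other 6 genes include 0.

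Beyond these 8, 91 genes of iron metabolism were listed in 8 groups by role, 89 were in the table and 80 were tested. None passed in either direction with edgeR, the smallest adjusted p being 0.788, and none passed with DESeq2. At an unadjusted p under 0.05 there were 5 of 80 (6.25%), close to the 6.29% of all genes. Values were higher in KO mice for 38 and lower for 42, with a median log2 fold change of -0.004. Only Nfs1 had every KO mouse above every WT mouse, against 0.457% of all genes, and none had every KO mouse below.

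Among 12 tested genes of iron uptake and the transferrin cycle, 6 had higher and 6 lower values in KO mice. Tfr2, the second transferrin receptor, averaged 8.07 ± 0.909 CPM in KO mice and 7.22 ± 0.494 CPM in WT mice, a log2 fold change of 0.16 (SE 0.088). Cybrd1, a ferric reductase, was at 0.13 (SE 0.082), and Mcoln1, a lysosomal iron-permeable channel, at 0.06 (SE 0.045). Lcn2, which binds bacterial iron carriers, was at -1.11 (SE 0.80), with 0.0954 to 1.18 CPM in KO mice and 0.0674 to 4.64 CPM in WT mice. All 5 storage and iron chaperone genes tested had higher values in KO mice, with a median of 0.04. Ncoa4, the receptor for ferritin breakdown, was at 0.04 (SE 0.053), and the iron chaperones Pcbp1, Pcbp2 and Pcbp4 were at 0.06, 0.01 and 0.07. Ftmt, mitochondrial ferritin, had no count in any library.

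Export and ferroxidase genes had lower values for 4 of 5 tested (median -0.11). Ceruloplasmin (Cp) was at -0.11 (SE 0.12), Heph at -0.12 (SE 0.13), Flvcr2 at -0.17 (SE 0.15) and Mon1a, which acts in ferroportin trafficking, at 0.09 (SE 0.075). The genes that act on the iron regulatory proteins or on Tfrc mRNA had lower values for 4 of 4. Fbxl5, the ubiquitin ligase subunit that marks iron regulatory protein 2 for destruction, was at -0.03 (SE 0.039). Rc3h1 and Rc3h2, the roquins, which are known to bring about mRNA decay, were at -0.01 (SE 0.062) and -0.13 (SE 0.056), and Zc3h12a was at -0.02 (SE 0.21). In the hepcidin and BMP axis, which sets ferroportin levels in the body, 6 of 6 tested had lower values (median -0.06). Bmp2 was at -0.41 (SE 0.24), Bmp6 at -0.17, Acvr1 at -0.08 and Bmpr1a at -0.05. Of the 11 genes listed for this axis, the genes of hepcidin itself were not among the 6 tested.

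Mitochondrial iron and iron-sulphur cluster genes had higher values for 14 of 23 (median 0.01). Nfs1, the cysteine desulphurase of cluster assembly, averaged 41.7 ± 1.37 CPM in KO mice and 39.1 ± 0.545 CPM in WT mice, with a log2 fold change of 0.09 (SE 0.039, adjusted p 0.788 with edgeR). Nubp1, a cytosolic cluster scaffold, was at 0.13 (SE 0.056), and the mitochondrial iron importer Slc25a28 at 0.08. Heme genes had higher values for 10 of 17 (median 0.01), with the biliverdin reductase Blvrb at 0.25 (SE 0.11), Abcb6 at 0.11, Ppox at 0.07 and Pgrmc1 at -0.05. Of the 8 other transcripts reported to carry an iron-responsive element, 2 had higher and 6 lower values (median -0.03). Epas1, Cdc42bpa, App and Prnp were each between -0.05 and -0.04.

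**Figure D3:**
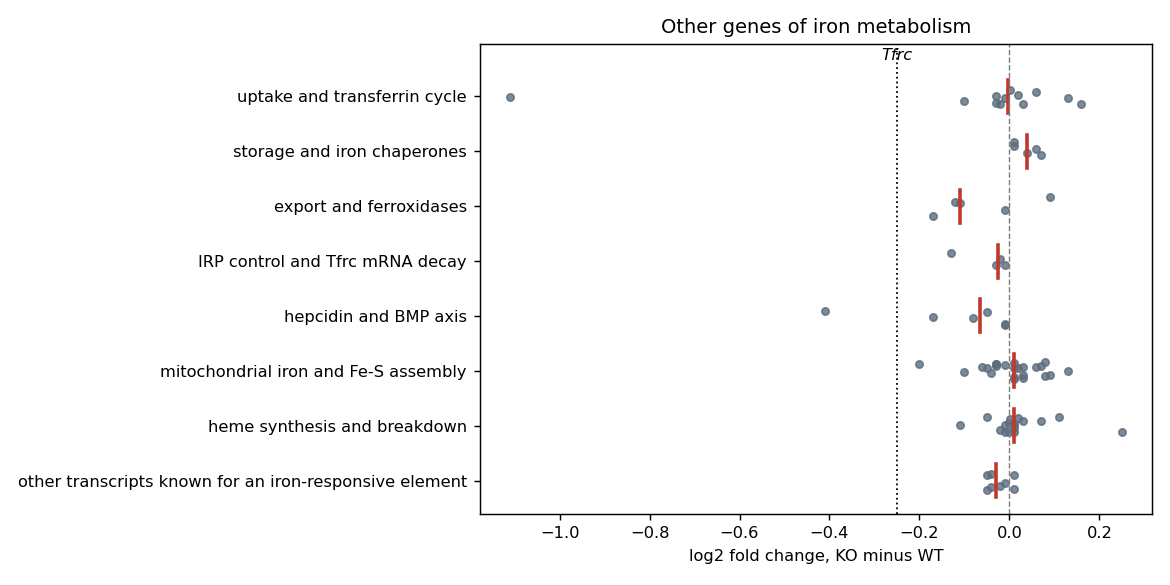
Log2 fold change, KO minus WT, of the 80 other iron genes tested, 1 point per gene in rows by role, with the median of each row as a red bar and Tfrc as a dotted line. The row medians lie between -0.11 and 0.04, and the point at -1.11 is Lcn2.

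Whether Tfrc moved with the other iron genes was then asked between mice of the same genotype, with genotype means removed. The comparison of genotypes used the spread between these mice as its error term, but not the correlation between genes. Log2 CPM was taken relative to the mean of each genotype, and every gene was correlated with Tfrc over the 10 mice, with an exact two-sided permutation of Tfrc within genotype (14400 arrangements, smallest possible p 6.94e-05) and adjustment over 14866 genes. No gene passed (0%), the smallest adjusted p being 0.387, and 0 genes passed by Spearman's rho. At the smallest possible p, a gene can pass over 14866 genes only if many others have p-values about as small. A lone partner of Tfrc could therefore not have passed, and the absence of calls does not show that Tfrc has none. Before adjustment, 1091 genes (7.34%) had a p under 0.05 by Pearson's r and 985 by Spearman's rho. Of the 7 iron genes 2 had such a p, both ferritin chains with a negative r, against 3.89% of all genes with a negative r and such a p.

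The ferritin chains had the lowest r with Tfrc of the 7 genes, and neither passed after adjustment. Fth1 had r = -0.66 (exact permutation p 0.011, adjusted p 0.596) and rho = -0.62 (p 0.0301, adjusted p 0.670). Ftl1 had r = -0.70 (exact permutation p 0.0174, adjusted p 0.623) and rho = -0.72 (p 0.0192, adjusted p 0.630). Of all genes, 4.05% had a lower r than Fth1 and 2.87% a lower r than Ftl1. Without WT mice 2 and 4, which lie farthest from the median of Tfrc, r was -0.73 for Fth1 and -0.68 for Ftl1. After GC and length correction r was -0.63 for Ftl1 but -0.29 for Fth1.

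The exporter and iron regulatory protein 2 had the highest r with Tfrc of the 7, and neither passed. Slc40a1 had r = 0.60 (exact permutation p 0.0787, adjusted p 0.718) and rho = 0.68 (p 0.0495, adjusted p 0.748), and Ireb2 had r = 0.53 (p 0.218, adjusted p 0.816) and rho = 0.53 (p 0.220, adjusted p 0.864). Without WT mice 2 and 4 these r were 0.48 and 0.33, and after GC and length correction they were 0.25 and 0.07. Trf had r = 0.20 (p 0.563), Slc11a2 r = -0.05 (p 0.894) and Aco1 r = -0.09 (p 0.858), with rho of 0.19, -0.02 and -0.05. Their r without those 2 mice was 0.09, -0.31 and 0.07.

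**Figure D4:**
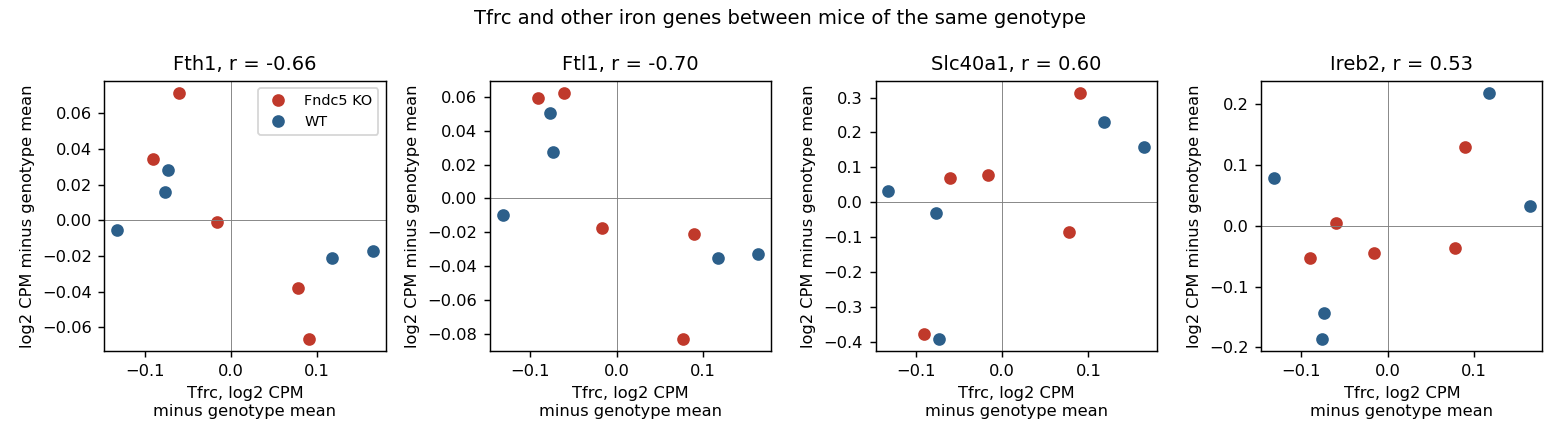
Log2 CPM of Fth1, Ftl1, Slc40a1 and Ireb2 against that of Tfrc, each minus the mean of its genotype, with 1 point per mouse and KO mice in red and WT mice in blue. The ferritin chains slope down (r = -0.66 and -0.70) and Slc40a1 and Ireb2 slope up (r = 0.60 and 0.53), none of them past the adjusted threshold.

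Among the other pairs, the 2 ferritin chains were the most alike. Fth1 and Ftl1 had r = 0.82 (exact permutation p 0.0174) and rho = 0.90 (p 0.00444), with an adjusted p of 0.729 and 0.565 over all genes compared with Fth1, and r = 0.96 without the 2 mice farthest in Fth1. Compared with Ftl1 instead, the adjusted p was 0.861 and 0.747, and r was 0.69 without the 2 mice farthest in Ftl1. Ireb2 and Slc40a1 had r = 0.70 (exact permutation p 0.0206) and rho = 0.78 (p 0.0151), with an adjusted p of 0.215 and 0.217 over all genes compared with Ireb2, and r = 0.83 without the 2 mice farthest in Ireb2. Compared with Slc40a1, the adjusted p was 0.298 and 0.373, and r was 0.75 without the 2 mice farthest in Slc40a1. Ireb2 had a negative r with Fth1 (r = -0.49, exact permutation p 0.046) and with Slc11a2 (r = -0.57, p 0.067). Over all genes compared with Ireb2, their adjusted p was 0.276 and 0.322. Compared with Fth1 and with Slc11a2 instead, it was 0.777 and 0.573. Taking each of the 8 genes in turn in the place of Tfrc, 0 genes passed over the whole table, under the same limit of the smallest possible p. For the pairs without Tfrc, r after GC and length correction is not given here.

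**Figure D5:**
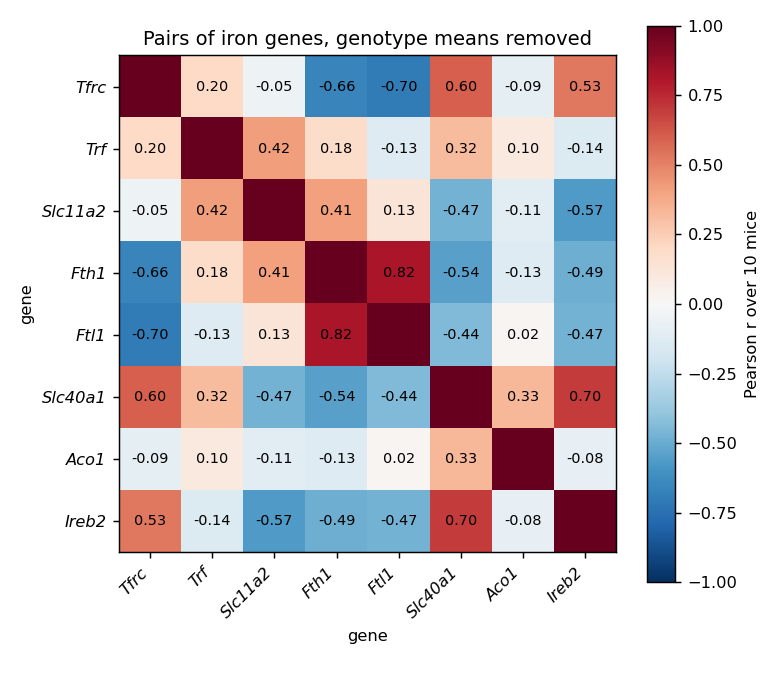
Pearson r over 10 mice for each pair of iron genes, from log2 CPM minus the genotype mean, with red for positive and blue for negative values. The ferritin chains form a pair (0.82) that is negative with Tfrc, Slc40a1 and Ireb2, and those 3 genes are positive with each other (0.53 to 0.70).

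The genes whose pattern over the 10 mice was most like that of Tfrc were not iron genes of these lists. The highest r belonged to Ddx3x, an RNA helicase (0.96), Fbxo16 (0.96), Zfp59 (0.95), Top3a, a DNA topoisomerase (0.95), and Ccbe1 (0.95). The lowest belonged to Bcl6, a transcriptional repressor (-0.98), the clock gene Per2 (-0.97) and Pqlc2, a lysosomal amino acid transporter (-0.95). Their adjusted p lay between 0.387 and 0.527 by exact permutation, and these r were the extremes of 14866. After GC and length correction, r was 0.94 for Ddx3x, 0.78 to 0.81 for the other 4, and -0.86 to -0.74 for the last 3. Among the 80 other iron genes, r with Tfrc was above 0 for 38 and below 0 for 42 (median -0.01), against a median of -0.00525 over all genes. An unadjusted p under 0.05 was found for 4 of the 80, against 7.34% of all genes. The highest r among them was that of Exoc6, an exocyst subunit (0.76, exact permutation p 0.00167, adjusted p 0.527), and the lowest that of the heme synthesis gene Uros (-0.75, p 0.0456, adjusted p 0.678).

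Markers of cell types were set beside the iron genes over the same mice, in 80 relations with marker and companion lists of which 0 passed after adjustment, and their part in the values above was not tested. Slc40a1 had its highest r with the mean of 14 endothelial and mural markers (r = 0.91, exact permutation p 0.00271; rho = 0.79, p 0.0153), with an adjusted p of 0.186 over 80 such relations and r = 0.62 without the 2 mice farthest in the markers. Trf, known as an oligodendrocyte product, had r = 0.77 with microglia markers (exact permutation p 0.00465, adjusted p 0.186; rho = 0.75, and r = 0.65 without the 2 farthest mice) and r = 0.77 with oligodendrocyte and myelin markers (p 0.0291, adjusted p 0.535; rho = 0.71, and r = 0.82 without the 2 farthest mice). Tfrc had r = 0.51 with endothelial and mural markers (p 0.159, adjusted p 0.750) and 0.48 with oligodendrocyte markers (p 0.153, adjusted p 0.750). Taken gene by gene, r with Tfrc was above 0 for 13 of 14 endothelial and mural markers (median 0.43). For oligodendrocyte markers it was 15 of 16 (median 0.37). It was also above 0 for 5 of 5 choroid plexus, 10 of 13 granule neuron, 6 of 10 astrocyte and 6 of 13 microglia markers tested. Over all genes the share was 49.5%. Markers of 1 list share the same 10 mice and are not replicates, so these counts carry no test. The strongest of the 10 relations of Tfrc was with hypoxia-inducible genes, at r = -0.69 (exact permutation p 0.0698, adjusted p 0.535; rho = -0.73), and r was -0.50 without the 2 farthest mice. Between genotypes these lists overlapped. The summed level of endothelial and mural markers was 323 to 390 CPM in KO mice and 337 to 396 CPM in WT mice, with 5 of 14 higher in KO mice. For 16 oligodendrocyte markers it was 1597 to 2008 CPM in KO mice and 1616 to 1886 CPM in WT mice, with 8 of 16 higher, and for 13 microglia markers 349 to 403 CPM in KO mice and 362 to 405 CPM in WT mice, with 8 of 13 higher. The 10 astrocyte markers summed to 5096 to 6336 CPM in KO mice and 5389 to 6177 CPM in WT mice, and the 10 choroid plexus markers to 35.9 to 44.5 CPM in KO mice and 36.1 to 42.4 CPM in WT mice. Kl made up most of the choroid plexus sum, at 30.7 CPM on average in KO mice and 29.2 CPM in WT mice. Ttr ran from 1.69 to 7.34 CPM in KO mice and from 3.18 to 5.09 CPM in WT mice. Of the 10 choroid plexus markers, 5 passed the filter on low counts. The overlap of these sums therefore says little of the markers other than Kl. No marker of these 5 lists was at 0 in every library, and none of those tested passed between genotypes. Of 7 red blood cell markers in the table, the 4 adult globin rows (Hbb-bs, Hbb-bt, Hba-a1 and Hba-a2) were listed at 0 in every library. How the counting treated reads shared between globin copies is not stated, so these zeros do not show that blood RNA was absent.

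Library totals ran from 26226375 to 43802079 counts, and Tfrc was counted at 1932 to 3353 reads per library. Fndc5 averaged 51.3 ± 4.27 CPM in KO mice and 75.3 ± 4.60 CPM in WT mice (log2 fold change -0.55, SE 0.057, edgeR adjusted p 0.000495), and no library lay on the wrong side of its label. The labels call the knockout global and do not name its allele, and reads of Fndc5 remain in it. The 13 granule neuron markers, which check the tissue, summed to 2609 to 2797 CPM in KO mice and 2408 to 2822 CPM in WT mice.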

How the data were processed

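The authors deposited 1 table of raw counts, whole numbers per gene symbol that are not normalized, from stranded poly(A) libraries of 500 ng total RNA sequenced as single-end reads of 75 bases, per the labels' protocols. STAR 2.5.1b, Cufflinks 2.2.1 and build mm10 are named, per the submitters' processing notes. For the counter, its strand setting and reads with several positions, nothing is given in the sources used here. Groups came from the genotype in each mouse's title. From the counts, filterByExpr kept 14867 genes, and TMM scaling and edgeR 4.0.16 (glmQLFit, glmQLFTest; R 4.3.3) compared genotypes without a block. Intervals are 95% from the fit. Log2 CPM used a prior count of 2. Lengths, GC content, coordinates and hairpins came from GENCODE M21, where 24490 rows matched a symbol and 62 a synonym. No library was a repeat of another of its genotype, the lowest chi-square per degree of freedom being 4.63.

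Steps were tested on simulated data. The members and lists were chosen with earlier results of these data known. The text names the 8 members, per iron list the 4 genes and per companion list the 3 genes of smallest p, Fndc5, and the 5 genes of highest and 3 of lowest r with Tfrc, passing over predicted genes and pseudogenes. One gene that the rule names is not reported here. Exoc6 and Uros fall outside this rule and were chosen after their values were seen. Alternatives were DESeq2 1.42.0, limma-voom (limma 3.58.1), scaling by upper quartiles, no filter on low counts, a minimum of 1 CPM in 5 libraries, a replicate block by mouse number, leaving out single libraries in turn, Spearman's rho, and spline corrections for GC content and length (4 degrees of freedom each; known for 99.3% of genes tested).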

Additional observations from a re-analysis of the deposited data

How the results depend on the processing

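The log2 fold changes of the 8 iron genes moved by less than 1 SD between mice in all 17 alternatives. Tfrc ranged from -0.28 to -0.17 and Ireb2 from -0.24 to -0.10, with the values nearest 0 after GC and length correction, and Tfrc ranged from -0.28 to -0.21 and Ireb2 from -0.24 to -0.13 with single libraries left out. Over all 17, Slc40a1 ranged from -0.14 to 0.03, Trf from -0.01 to 0.07, Slc11a2 from -0.01 to 0.02, Ftl1 from -0.01 to 0.05, Fth1 from 0.01 to 0.05 and Aco1 from 0.04 to 0.09. None of the 8 passed in any of these fits, and the count of other iron genes past the threshold was 0 in all 17. The count of all genes past the threshold was 1, became 3 with DESeq2, and lay between 1 and 3 when a library was left out (3 without WT mouse 1 and 2 without KO mouse 2), and the cause was not tested. In the 16 alternatives for correlation with Tfrc, 0 genes passed. With 1 library left out only 2880 arrangements remain, so even more genes must share the smallest p before any can pass. These zeros therefore say little of how stable the result is. Over the 16 alternatives r ranged from 0.05 to 0.41 for Trf, -0.78 to -0.29 for Fth1, -0.84 to -0.58 for Ftl1, 0.25 to 0.71 for Slc40a1 and 0.07 to 0.75 for Ireb2. The r of Slc11a2 turned to 0.04 with upper-quartile scaling and 0.43 after GC and length correction, and ranged from -0.49 to 0.31 with single libraries left out. The r of Aco1 turned to 0.01 with upper-quartile scaling, and ranged from -0.39 to 0.36 with single libraries left out. Depth limits Slc40a1 most, at 191 to 365 reads per library.

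The shared mouse numbers were not read as pairs. Same-numbered mice correlated at 0.209, 0.204, 0.108, 0.00901 and 0.0282 in their deviations from the genotype means. Each mouse was compared with the 5 mice of the other genotype, and 6 of 10 correlated best with their own number, a hint from the data only. With the replicate block 8 genes passed, none of them an iron gene listed here. The members were chosen on this contrast, so their adjusted p with the block are descriptions and carry no test. Tfrc had a log2 fold change of -0.25 and an edgeR adjusted p of 0.0655 with the block. Ireb2 had -0.19 and an edgeR adjusted p of 0.156 with the block, and the adjusted p of the other 6 lay between 0.639 and 1. Correlation with the block was not run, since it leaves 5 independent differences between mice. The permutation of Tfrc within genotype treats the 10 mice as independent, so its p-values make no allowance for likeness between same-numbered mice.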

Other observations

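Gene groups that touch Tfrc from other sides were counted in the same way, and 0 of their members passed over all genes with edgeR. Of 23 genes of receptor endocytosis and recycling, 11 had higher and 12 lower values in KO mice (median log2 fold change -0.01). Cltc, the clathrin heavy chain, averaged 470 ± 17.6 CPM in KO mice and 511 ± 20.1 CPM in WT mice (-0.12, SE 0.036), and it had r = 0.78 with Tfrc between mice of the same genotype (exact permutation p 0.00715, adjusted p 0.596 over all genes). Over the list r with Tfrc was above 0 for 10 genes and below 0 for 13 (median -0.05). Vps35, a retromer subunit, averaged 148 ± 3.28 CPM in KO mice and 164 ± 5.55 CPM in WT mice (-0.14, SE 0.034). It was the only 1 of the 23 with every KO mouse below every WT mouse, against 0.437% of all genes. The recycling GTPase gene Rab11a was at -0.13 (SE 0.057). Of 17 hypoxia-inducible genes, a group that shares a known regulator with Tfrc, 5 had higher and 12 lower values (median -0.03), with Bnip3 at -0.07, Bnip3l at -0.06 and Ddit4 at 0.12. Their r with Tfrc was above 0 for 5 and below 0 for 12 (median -0.21), where 49.5% of all genes were above 0. The lowest, chosen after their values were seen, were Kdm3a at -0.89, P4ha1 at -0.84 and Ankrd37 at -0.80. Their exact permutation adjusted p was 0.590, 0.596 and 0.596 over all genes. For Cltc and these 3 genes, r after GC and length correction is not given here. Of 12 ferroptosis genes 6 had higher and 6 lower values (median 0.00), with the lipid enzyme Acsl4 at -0.18 (SE 0.047), Keap1 at 0.08 and Nfe2l2 at 0.06. Activity-regulated genes had lower values for 25 of 25 (median -0.21). The direction of this list was known from these samples, so the list is not independent evidence of that direction. Their r with Tfrc was above 0 for 20 of 25 (median 0.23), against 49.5% of all genes. Genes of 1 list share the same 10 mice, so these counts of r carry no test.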
